A study of Mus musculus with 8 samples.

Results

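The globin genes and Alas2 were followed through 8 RNA-seq libraries of cells sorted from the brains of aged mice. The 6 genes, taken by symbol from the 24924 genes of the count table, were the adult alpha globins Hba-a1 and Hba-a2, the adult beta globins Hbb-bs and Hbb-bt, the embryonic beta-like globin Hbb-y, and Alas2, the heme enzyme of red cell precursors. They were chosen by symbol and by a measured value: Hbb-y was known to be higher in both microglia libraries of mice given interleukin-5 (IL-5). The levels of the 6 genes in microglia of IL-5 mice against PBS mice are therefore a description, and no test of them is given there.

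Hemoglobin is built from alpha-type and beta-type globin chains, each holding a heme group. In the mouse, Hbb-y is used by the primitive red cells of the yolk sac, and the adult beta genes replace it when blood formation moves to the fetal liver. Alas2 catalyses the first step of heme synthesis in the erythroid lineage, while the related Alas1 serves other cells. Adult globin transcripts are abundant in young red cells and are a common sign of blood in tissue RNA.

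All mice were C57BL/6 of 20 to 22 months. They had been given 2 µg of IL-5, a cytokine of eosinophils and B cells, on each of 2 days, or phosphate-buffered saline (PBS). The groups were brain T cells of IL-5 mice, brain T cells of PBS mice, microglia of IL-5 mice and microglia of PBS mice, with 2 libraries each. The labels name neither the surface markers of the sort nor the number of mice behind a library, so the p-values measure the spread between these libraries, which may be technical.

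The libraries held 23536908 to 30423828 counts in genes, and levels are counts per 1000000 of these (CPM). Summed markers fitted the cell type on the label: the 10 microglia markers came to 98.8 to 172 CPM in T cells, and to 12061 and 18464 CPM in microglia of IL-5 mice and 24175 and 23105 CPM in microglia of PBS mice. The 10 T cell markers came to 4111 and 5121 CPM in T cells of IL-5 mice and 6478 and 7289 CPM in T cells of PBS mice, and to 16.6 to 176 CPM in microglia. In both cell types the sum of its own markers was thus lower in both IL-5 libraries than in either PBS library, and the part of this in the levels of Hbb-y and Alas2 was not tested. Marker transcripts of other cells were counted as well, and whether such cells were among those sorted was not tested. The 13 neutrophil markers summed to 22.9 to 168 CPM in T cells and 14228 to 18528 CPM in microglia. The 7 markers of choroid plexus, the epithelium that makes cerebrospinal fluid, summed to 111473 and 114591 CPM in T cells of IL-5 mice and 82843 and 58209 CPM in T cells of PBS mice, and to 59871 and 63700 CPM in microglia of IL-5 mice and 43036 and 35757 CPM in microglia of PBS mice. In sorted bulk RNA, fewer cells of a type and less RNA per cell cannot be told apart.

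The 4 adult globins had 0 counts in each of the 8 libraries. Their sequences show how much the copies have in common. The first 75 coding bases, the length of the sequencing reads, are printed for the 5 globins from the GRCm38 genome, 5′ to 3′ along each gene's own strand, and capitals in Hbb-y mark bases that differ from Hbb-bs.
Hba-a1: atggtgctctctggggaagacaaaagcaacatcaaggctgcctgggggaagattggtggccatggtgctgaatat
Hba-a2: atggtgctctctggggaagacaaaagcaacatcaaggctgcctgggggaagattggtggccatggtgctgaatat
Hbb-bs: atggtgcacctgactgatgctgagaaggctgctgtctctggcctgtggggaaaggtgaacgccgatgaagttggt
Hbb-bt: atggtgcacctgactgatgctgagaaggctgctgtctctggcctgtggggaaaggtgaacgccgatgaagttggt
Hbb-y: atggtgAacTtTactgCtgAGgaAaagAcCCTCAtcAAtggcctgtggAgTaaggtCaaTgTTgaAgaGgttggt

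The alpha stretches lie in exonic coding sequence at chr11:32283707-32283781 and chr11:32296524-32296598 on the plus strand, and the beta stretches at chr7:103827801-103827875 for Hbb-bs, chr7:103813795-103813869 for Hbb-bt and chr7:103853078-103853152 for Hbb-y on the minus strand. Within each adult pair the 75 bases were the same. Over the whole coding sequence Hba-a1 and Hba-a2 differed at 1 of 426 bases, and Hbb-bs and Hbb-bt at 1 of 441. Hbb-y differed from Hbb-bs at 23 of these 75 bases and at 113 of 441 in all, so its coding sequence was 74.4% identical. The single difference between the adult beta genes falls near the end of the coding sequence, and capitals mark it in the following 75 bases, at chr7:103826692-103826766 for Hbb-bs and chr7:103812683-103812757 for Hbb-bt.
Hbb-bs: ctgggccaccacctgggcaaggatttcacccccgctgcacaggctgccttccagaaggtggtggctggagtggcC
Hbb-bt: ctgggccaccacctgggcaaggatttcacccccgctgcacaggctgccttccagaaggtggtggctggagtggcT

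Every 75-base window of the annotated transcripts (GENCODE M21) was looked up for exact matches in the transcripts of all other genes there, on both strands. A single differing base thus made a window a gene's own, and where such reads were aligned was not tested. Of 736 windows of Hba-a1, 236 occurred in no other gene (32.1%), and of 591 windows of Hba-a2, 91 did (15.4%). The 500 other windows of each were found in the other copy. Hbb-bs had 335 of 691 windows to itself (48.5%) and Hbb-bt 273 of 629 (43.4%), and each shared 356 with the other. Each adult gene thus had windows found in no other gene of this annotation, and 0 reads were counted on the gene. The count table also lists Hbb-b1 and Hbb-b2, adult beta genes whose sequences were not part of the lookup. How many windows of Hbb-bs and Hbb-bt they share was not determined. All 559 windows of Hbb-y were its own. Of 2398 windows of Alas2, 2160 were found in no other gene (90.1%), and 238 were shared with Apex2, a DNA repair endonuclease.

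Over the 23915 genes matched by symbol, genes at 0 in all 8 libraries became rarer as this share grew, apart from the last step. They made up 79.1% of 436 genes without a window of their own, 68.2% of 434 genes with up to 25%, 32.6% of 1506 genes with up to 75%, 20.1% of 8674 genes with less than 100% and 25.4% of 12865 genes with 100%. Hba-a2 falls in the second of these classes, and Hba-a1, Hbb-bs and Hbb-bt in the third. Genes with no window of their own could still hold counts, and the highest was Cdr1 with 9585 counts over all libraries. How reads that match several genes were counted is not given in the sources used here, and its part in the zeros was not tested. With 0 counts, up to 3 counts per library are allowed, which is 0.0986 to 0.127 CPM depending on the library. This limit covers counting error only, and only reads that the counting would have kept.

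**Figure D1:**
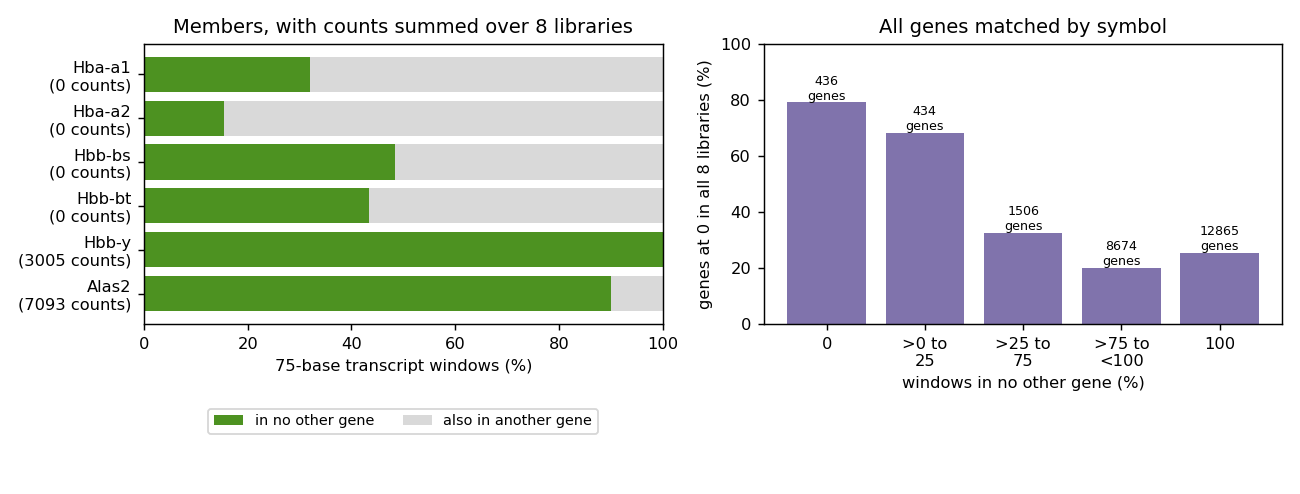
Left, the share of 75-base transcript windows (percent, x axis) that occur in no other gene (green) or also in another gene (grey) for each of the 6 genes, with counts summed over the 8 libraries beside the name. Right, the share of all matched genes at 0 counts in all 8 libraries (percent, y axis) by the share of windows of their own, with the number of genes on each bar. The 4 adult globins hold 15.4% to 48.5% of windows of their own and 0 counts, and Hbb-y with 100% holds 3005 counts.

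Hbb-y, at chr7:103851749-103853216 on the minus strand of GRCm38, was the only one of the 5 globins chosen that had counts. In microglia of IL-5 mice it had 1232 and 505 counts, or 52.3 and 18.5 CPM, against 46 and 126 counts, or 1.51 and 4.64 CPM, in microglia of PBS mice. The groups did not overlap, IL-5 being higher, which is the pattern the gene was chosen for. The edgeR log2 fold change was 3.78 (SE 1.00, n = 2 each), and it was 2.58 without microglia IL-5 replicate 1. Of the 13764 genes tested there, 15% were likewise higher in both IL-5 libraries without overlap, and 0% passed an adjusted p of 0.05 by edgeR (617 genes, or 4.48%, at an unadjusted p below 0.05).

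In T cells the libraries of IL-5 mice stood on both sides of those of PBS mice. Hbb-y had 886 and 0 counts in T cells of IL-5 mice, or 29.7 CPM and at most 0.113 CPM, against 76 and 134 counts, or 2.88 and 5.21 CPM, in T cells of PBS mice. One IL-5 library was thus the second highest of the 8 and the other the lowest. The log2 fold change of IL-5 over PBS was 1.93 (SE 2.69, n = 2 each; edgeR adjusted p = 1.00), smaller than its error. Without T cells IL-5 replicate 1 the sign turned, to a fitted value of -9.72 that rests on the remaining library at 0 counts.

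By mean level Hbb-y stood at 35.4 ± 23.9 CPM in microglia of IL-5 mice, 14.8 ± 21.0 CPM in T cells of IL-5 mice, 4.04 ± 1.65 CPM in T cells of PBS mice and 3.08 ± 2.21 CPM in microglia of PBS mice (SD, n = 2 each). Each neighbouring pair in this order differed by less than the larger of its SDs. In PBS mice the log2 fold change of T cells over microglia was -0.30 (SE 1.92), given without a test because the choice of Hbb-y also used its level in those microglia libraries. Its sign turned to 0.39 when libraries were scaled by size alone, 0.61 with microglia PBS replicate 2 left out and 0.071 with T cells PBS replicate 1 left out, so no direction is given. In IL-5 mice the log2 fold change was -2.16 (SE 1.99), likewise given without a test, and it was -1.02 without microglia IL-5 replicate 1 and -1.15 without T cells IL-5 replicate 2. Without T cells IL-5 replicate 1 the fitted value was -13.45, against a T cell group then at 0 counts.

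Alas2 lies at chrX:150547375-150570638 on the plus strand, inside the span of Apex2 on the minus strand at chrX:150519519-150589868. Of its 2403 annotated exon bases, 311 (12.9%) are also exon of Apex2. The strand setting of the counting is not given in the sources used here, so reads from those bases could belong to either gene. Apex2 had 28.3 and 6.44 CPM in T cells of IL-5 mice and 5.57 and 9.29 CPM in T cells of PBS mice. The library with 28.3 CPM of Apex2 is the one in which Alas2 was lowest. In microglia Apex2 kept to 5.40 and 4.99 CPM in IL-5 mice and 5.88 and 4.64 CPM in PBS mice.

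In T cells Alas2 had 2 and 828 counts in IL-5 mice, or 0.067 and 31.2 CPM, against 1709 and 2629 counts, or 64.7 and 102 CPM, in PBS mice. Both IL-5 libraries lay below both PBS libraries, as they did for 19% of the 13897 genes tested, and one of them was at 2 counts. The log2 fold change was -2.37 (SE 1.87, n = 2 each; edgeR adjusted p = 1.00). It was -1.39 without T cells IL-5 replicate 1 and -10.13 without T cells IL-5 replicate 2, where the remaining IL-5 library held 2 counts. Both members that could be tested missed the threshold in this comparison, and edgeR called 0% of the 13897 genes, with 600 (4.32%) at an unadjusted p below 0.05. DESeq2 called 658 genes (4.73%), and gave Hbb-y an adjusted p of 0.852 and Alas2 one of 0.804.

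In microglia Alas2 had 451 and 643 counts in IL-5 mice, or 19.2 and 23.6 CPM, against 215 and 616 counts, or 7.07 and 22.7 CPM, in PBS mice. The ranges overlapped, and the log2 fold change of 0.67 (SE 0.79) fell to 0.059 without microglia PBS replicate 1. In this comparison DESeq2 called 67 genes (0.487%), against 0 by edgeR and 617 at an unadjusted p below 0.05.

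The mean level of Alas2 was 83.4 ± 26.5 CPM in T cells of PBS mice, 21.4 ± 3.15 CPM in microglia of IL-5 mice, 15.6 ± 22.0 CPM in T cells of IL-5 mice and 14.9 ± 11.04 CPM in microglia of PBS mice (SD, n = 2 each). The gap below T cells of PBS mice was larger than either SD beside it, and the other neighbours in this order lay within the larger of their SDs. In PBS mice both T cell libraries were above both microglia libraries, which held for 42.2% of the 15397 genes tested. The log2 fold change of T cells over microglia was 1.79 (SE 1.63, n = 2 each; edgeR adjusted p = 0.572), which missed the threshold that 7.18% of genes passed (2.57% higher and 4.6% lower in T cells; 20.1% by DESeq2, where its adjusted p was 0.469). In IL-5 mice it was -1.32 (SE 1.61, n = 2 each; edgeR adjusted p = 0.693), where 8.22% of genes passed (2.49% higher and 5.73% lower in T cells; 20.2% by DESeq2, where its adjusted p was 0.573). The size of this fold change, which was not called, depended on single libraries: without T cells IL-5 replicate 2 the fitted value was -8.996. The lone T cell library of IL-5 mice was then the one with 2 counts. Of the 6 genes, 2 passed the filter on low counts in each comparison. Tests of Hbb-y were thus given in 1 comparison and of Alas2 in 3, and edgeR called 0 of these 4 with all libraries in the fit.

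**Figure D2:**
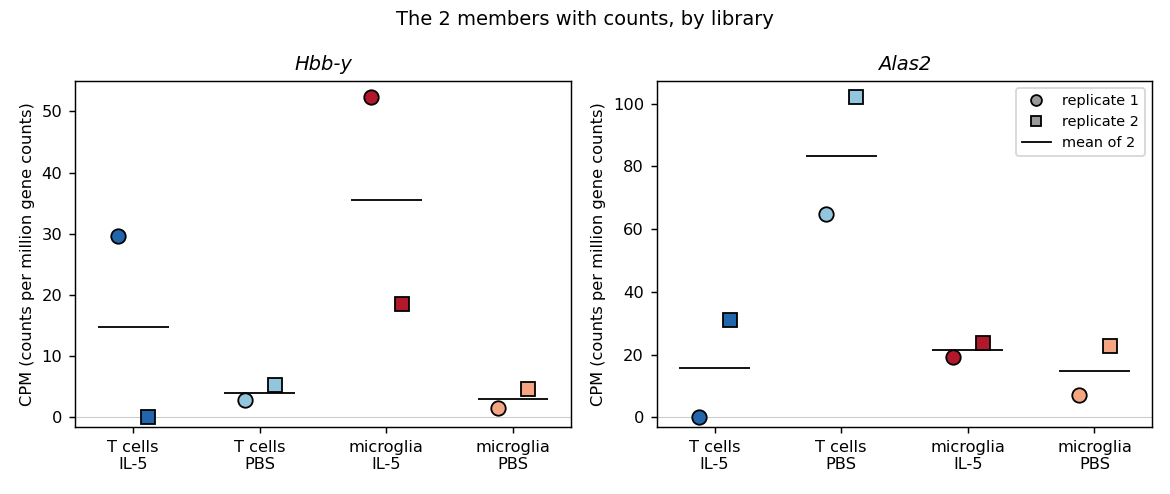
Level of Hbb-y (left) and Alas2 (right) in each library, in CPM on a linear y axis; circles are replicate 1, squares replicate 2 and lines the mean of 2. Hbb-y is at 52.3 and 18.5 CPM in microglia of IL-5 mice and at 29.7 CPM in 1 of 2 T cell libraries of IL-5 mice, and Alas2 is highest in T cells of PBS mice, at 64.7 and 102 CPM.

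**Figure D3:**
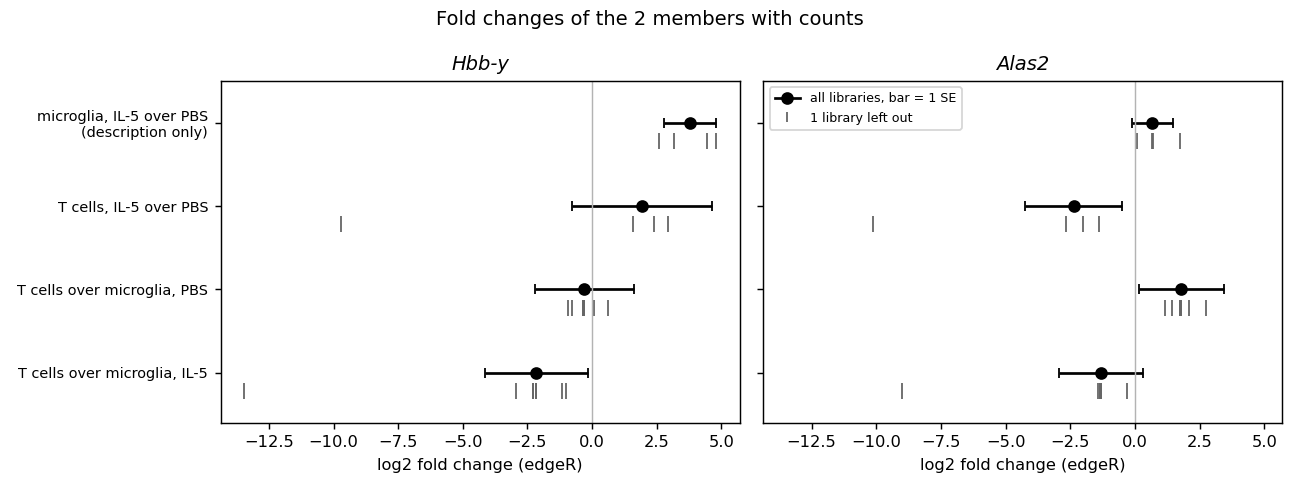
Log2 fold change (x axis, edgeR) of Hbb-y (left) and Alas2 (right) in 4 comparisons, with points from all libraries, bars of 1 SE, and ticks for the value with each library left out in turn. Ticks at -8.996 and beyond come from fits in which the lone T cell library of IL-5 mice held 0 or 2 counts and depend on the fit's prior count.

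Per length of transcript, 633 bases for Hbb-y and 2037 for Alas2, the order of the genes differed between groups. In T cells of IL-5 mice Hbb-y had 46.9 and 0 CPM per kilobase and Alas2 0.0329 and 15.3. In T cells of PBS mice Hbb-y had 4.55 and 8.23 CPM per kilobase and Alas2 31.8 and 50.1. Alas2 was thus above Hbb-y in 3 of these 4 libraries. In microglia of IL-5 mice Hbb-y had 82.7 and 29.3 CPM per kilobase and Alas2 9.41 and 11.6. In microglia of PBS mice Hbb-y had 2.39 and 7.33 CPM per kilobase and Alas2 3.47 and 11.1. Per kilobase Hbb-y was therefore above Alas2 in T cells replicate 1 and in both microglia libraries of IL-5 mice, and below it in T cells replicate 2 of IL-5 mice and in all 4 libraries of PBS mice. The library with the second highest Hbb-y had the lowest Alas2, and the library with no Hbb-y had the third highest Alas2.

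Gaps of this kind between libraries of one group were also seen in other genes. In T cells of IL-5 mice, 913 of the 12792 genes with at least 100 counts in either library (7.14%) were at 0 in the other, and the share was 6.17% in T cells of PBS mice. In microglia it was 6.56% in IL-5 mice and 4.04% in PBS mice. Of the 14219 genes with a mean of at least 1 CPM, 11.8% and 4.18% were at 0 in T cells of IL-5 mice and 10.4% and 6.57% in T cells of PBS mice, and 13.8% and 7.55% in microglia of IL-5 mice and 7.07% and 7.62% in microglia of PBS mice. Reads outside annotated genes made up 19.7% and 15.9% of the reads in T cells of IL-5 mice and 19.2% and 19.8% in T cells of PBS mice, and 25.5% and 16.99% in microglia of IL-5 mice and 15.2% and 16.2% in microglia of PBS mice. The libraries with the largest shares of genes at 0, replicate 1 of microglia and of T cells in IL-5 mice, are also those with the highest Hbb-y, and the part of this in the result was not tested.

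Other globin genes gave few counts. Hbb-bh1, an embryonic beta-like globin of the same cluster as Hbb-y, and Hbb-bh2 had 0 counts in all 8 libraries, as had Hbb-b1 and Hbb-b2, the adult beta genes of another mouse haplotype. Hba-x, the embryonic alpha-like partner of Hbb-y in primitive red cells, had 1 count in all, in T cells PBS replicate 2. Hba-x, Hbb-bh1 and Hbb-bh2 had, like Hbb-y, 100% of their windows to themselves. Hbq1b, a theta globin beside the alpha genes, had 0.636 and 1.02 CPM in T cells of IL-5 mice and 4.16 and 2.72 CPM in T cells of PBS mice, and 0 and 0 CPM in microglia of IL-5 mice and 0.493 and 1.44 CPM in microglia of PBS mice. In both cell types its IL-5 libraries lay below its PBS libraries, as they did for 19% of the genes tested in T cells and 23.1% in microglia, and it missed the threshold in each comparison. Its near copy Hbq1a was at 0 in all 4 T cell libraries and at most at 1.22 CPM in microglia. Cytoglobin (Cygb) reached 7.23 CPM and myoglobin (Mb) 10.2 CPM in single T cell libraries, and neuroglobin (Ngb) had counts in 1 library only, at 0.0734 CPM. None of the 3 or 4 genes of this list of 10 that were tested in a comparison was called by edgeR or DESeq2.

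Genes of mature and maturing red cells were low and uneven across the same libraries. Slc4a1, the anion exchanger band 3 of the red cell membrane, had 0 and 16.7 CPM in T cells of IL-5 mice and 14.1 and 8.70 CPM in T cells of PBS mice, and 1.32 and 0.918 CPM in microglia of IL-5 mice and 6.97 and 13.4 CPM in microglia of PBS mice. In microglia the band 3 gene was lower in both IL-5 libraries than in either PBS library, as were 23.1% of the genes tested. Ermap, an erythroid membrane protein, ran the other way. It had 24.05 and 14.8 CPM in microglia of IL-5 mice and 12.6 and 6.78 CPM in microglia of PBS mice. Of the genes tested, 15% were likewise higher in both IL-5 libraries. In the list 9 of 16 tested members had a log2 fold change above 0, beside 6744 of all 13764 genes tested. Rhag, the Rh-associated glycoprotein, was at 0 in all 4 microglia libraries and in T cells had 0 and 8.96 CPM in IL-5 mice and 14.5 and 0 CPM in PBS mice.

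Of the 24 red cell genes of this list in the table, 14 and 2 were at 0 in T cells of IL-5 mice and 4 and 5 in T cells of PBS mice, and 12 and 8 in microglia of IL-5 mice and 5 and 11 in microglia of PBS mice. The T cell library with 29.7 CPM of Hbb-y had 14 of them at 0, Alas2 at 2 counts and Slc4a1, Rhag and Gypc at 0. The T cell library with 0 counts of Hbb-y had 2 of them at 0. The most abundant genes of the list are also used outside the red cell: Car2, a carbonic anhydrase, averaged 323 CPM over the 8 libraries, Bnip3l, a mitophagy receptor, 78.7 CPM, Epb41, protein 4.1, 54.1 CPM, and Bpgm, the enzyme of 2,3-bisphosphoglycerate, 50.0 CPM. In T cells of IL-5 against PBS mice 20 genes were tested and 0 called by edgeR, 6 with a log2 fold change above 0 and 14 below, with a median of -0.54 against -0.012 for all genes tested. There 2 genes had an unadjusted p below 0.05 by edgeR and were called by DESeq2, beside 4.32% and 4.73% of all genes tested. One was Car2, which choroid plexus epithelium also makes, at 512 and 737 CPM in IL-5 mice and 401 and 401 CPM in PBS mice (DESeq2 adjusted p = 0.0216). The other was Tspo2, a red cell relative of the translocator protein, at 7.33 and 3.39 CPM in IL-5 mice and 0 and 0 CPM in PBS mice (DESeq2 adjusted p = 0.00425). In microglia 16 were tested and 0 called by edgeR or DESeq2, 1 having an unadjusted p below 0.05, with a median of 0.20 against -0.023 for all genes. Between T cells and microglia of PBS mice 0 genes of the list were called, beside 7.18% of all genes by edgeR and 20.1% by DESeq2. In IL-5 mice edgeR called 1, Car2, beside 8.22% of all genes, and DESeq2 called 2, beside 20.2%. Car2 had 512 and 737 CPM in T cells against 89.8 and 184 CPM in microglia (log2 fold change 1.40, SE 0.35, edgeR adjusted p = 0.0418). When libraries were left out in turn this call was lost in 7 of 8 fits (edgeR adjusted p = 0.0656 to 0.201), and it was lost with the replicate block (edgeR adjusted p = 0.0534). The list's median log2 fold change of T cells over microglia was 0.73 in IL-5 mice and 1.01 in PBS mice, against 0.19 and 0.056 for all genes, over 22 tested genes.

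Among the genes of heme synthesis, Alas1, the enzyme of the same first step in other cells, had 92.7 and 94.6 CPM in T cells of IL-5 mice and 85.9 and 152 CPM in T cells of PBS mice, and 18.1 and 40.9 CPM in microglia of IL-5 mice and 21.7 and 24.6 CPM in microglia of PBS mice. It was present in every library, also where Alas2 had 2 counts. The log2 fold change of T cells over microglia was 0.89 (SE 0.50) in IL-5 mice, with an edgeR adjusted p of 0.337, and 1.67 (SE 0.51) in PBS mice, with an edgeR adjusted p of 0.0857 and a DESeq2 adjusted p of 0.0226. Fech, ferrochelatase, which inserts the iron at the last step, averaged 61.2 CPM, and Cpox, coproporphyrinogen oxidase, 58.2 CPM.

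Of the 15 heme synthesis genes, edgeR called 1 between the cell types in each treatment, beside 8.22% of all genes in IL-5 mice and 7.18% in PBS mice. DESeq2 called 3 in each treatment, beside 20.2% of all genes in IL-5 mice and 20.1% in PBS mice. Tmem14c, a mitochondrial porphyrin transporter, had 82.3 and 127 CPM in T cells against 558 and 270 CPM in microglia of IL-5 mice (log2 fold change -2.90, SE 0.50, edgeR adjusted p = 0.00979), a call that was lost without T cells IL-5 replicate 1 (edgeR adjusted p = 0.0796). In PBS mice it had 108 and 79.5 CPM in T cells against 246 and 223 CPM in microglia (log2 fold change -2.02, SE 0.48, edgeR adjusted p = 0.0360), a call that was lost without any one of the 4 libraries of that contrast (edgeR adjusted p = 0.0820 to 0.179). The median log2 fold change of the list was 0.55 in IL-5 mice and 0.31 in PBS mice. By edgeR and by DESeq2, 0 of 15 tested heme genes were called between IL-5 and PBS within T cells (median -0.039) and 0 of 14 within microglia (median -0.38), and 0 had an unadjusted p below 0.05.

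The transcription factors that drive globin genes in red cell precursors were low and uneven. The promoters of Hbb-y, Alas2 and, for comparison, adult Hbb-bs are printed because 2 of these factors bind short motifs there: GATA1 binds GATAA, and KLF1 binds CACCC. The 150 bases before the RefSeq start are given on each gene's own strand of GRCm38.p6, at chr7:103853208-103853357 (minus), chrX:150547267-150547416 (plus) and chr7:103827929-103828078 (minus), with capitals at GATAA, at the CACCC box, at the CCAAT box and at the TATAA box on either strand.
Hbb-y: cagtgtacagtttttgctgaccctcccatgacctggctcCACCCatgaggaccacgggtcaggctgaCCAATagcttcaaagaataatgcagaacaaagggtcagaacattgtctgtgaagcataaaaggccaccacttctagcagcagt
Alas2: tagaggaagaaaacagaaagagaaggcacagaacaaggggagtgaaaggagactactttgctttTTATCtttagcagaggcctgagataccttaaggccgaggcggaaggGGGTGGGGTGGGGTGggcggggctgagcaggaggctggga
Hbb-bs: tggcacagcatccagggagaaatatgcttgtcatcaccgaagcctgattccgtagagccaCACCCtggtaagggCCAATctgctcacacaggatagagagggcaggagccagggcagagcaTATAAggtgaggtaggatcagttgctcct

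CACCC stood once in the Hbb-y and Hbb-bs windows, on the strand of the gene, and 3 times on the opposite strand of Alas2, all within 40 bases before the start. GATAA was found in the Alas2 window only. CCAAT, 83 to 79 bases before the start in Hbb-y and 76 to 72 in Hbb-bs, was not found in Alas2, and TATAA was found in Hbb-bs only. None of the motifs overlapped another in these 3 windows. The windows end at the RefSeq starts, and the GENCODE gene spans reach into all 3 of them. That of Alas2 begins at chrX:150547375, ahead of its 3 CACCC matches. That of Hbb-bs begins at chr7:103828096 on the minus strand and so covers its whole window. In 150-base windows of 32851 RefSeq promoters, 13.3% held GATAA, 37.4% CACCC, 24.5% CCAAT and 14.2% TATAA on either strand, so a match is common and is no sign of a site in use.

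Gata1 was at 0 and 1.77 CPM in T cells of IL-5 mice and 0 and 11.2 CPM in T cells of PBS mice, and at 0 and 0 CPM in microglia of IL-5 mice and 0 and 5.12 CPM in microglia of PBS mice. Klf1 was at 0 and 7.30 CPM in T cells of IL-5 mice and 11.8 and 0 CPM in T cells of PBS mice, and at 0 and 0 CPM in microglia of IL-5 mice and 3.55 and 6.08 CPM in microglia of PBS mice. Both factors were at 0 in the 3 libraries with the highest Hbb-y. So was Gfi1b, another listed regulator, which had counts only in T cells IL-5 replicate 2. Sox6 and Epor were at 0 in microglia IL-5 replicate 1, the library with the highest Hbb-y. Tal1, Bcl11a and other regulators had counts in all 3. Tal1, a partner of GATA1, had 6.56 and 2.33 CPM in T cells of IL-5 mice and 0 and 1.24 CPM in T cells of PBS mice, and 12.8 and 5.07 CPM in microglia of IL-5 mice and 5.26 and 10.3 CPM in microglia of PBS mice. Bcl11a, which represses embryonic globin genes in adult red cell precursors, had 1.74 and 5.76 CPM in T cells of IL-5 mice and 0 and 0.622 CPM in T cells of PBS mice, and 10.2 and 6.39 CPM in microglia of IL-5 mice and 0.625 and 3.53 CPM in microglia of PBS mice. Sox6, which acts with Bcl11a, averaged 3.55 CPM over the 8 libraries. Zbtb7a, a further repressor of fetal-type globin in human cells, averaged 90.8 CPM, Ldb1, a cofactor that joins the locus control region to the globin promoters, 116 CPM, and Zfpm1, the GATA1 partner FOG1, 13.5 CPM.

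Lmo2, which bridges Ldb1 to GATA factors and is also used in other blood cells and endothelium, was the 1 of 11 tested regulators that edgeR called, and also DESeq2, a share close to the 8.22% and 7.18% of all genes that edgeR called in IL-5 and PBS mice. DESeq2 called 20.2% and 20.1% of all genes there. Lmo2 was lower in T cells, at 76.4 and 31.0 CPM against 276 and 332 CPM in microglia of IL-5 mice (log2 fold change -3.32, SE 0.49, edgeR adjusted p = 0.00554). In PBS mice it stood at 86.7 and 54.8 CPM in T cells against 370 and 370 CPM in microglia (log2 fold change -3.08, SE 0.49, edgeR adjusted p = 0.00629). The median log2 fold change of the 11 regulators for T cells over microglia was -0.74 in IL-5 mice and -0.73 in PBS mice. Between IL-5 and PBS 0 were called by edgeR or DESeq2, with a median of -0.37 over 11 genes in T cells (0 at an unadjusted p below 0.05) and -0.42 over 10 in microglia (2 at an unadjusted p below 0.05).

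**Figure D4:**
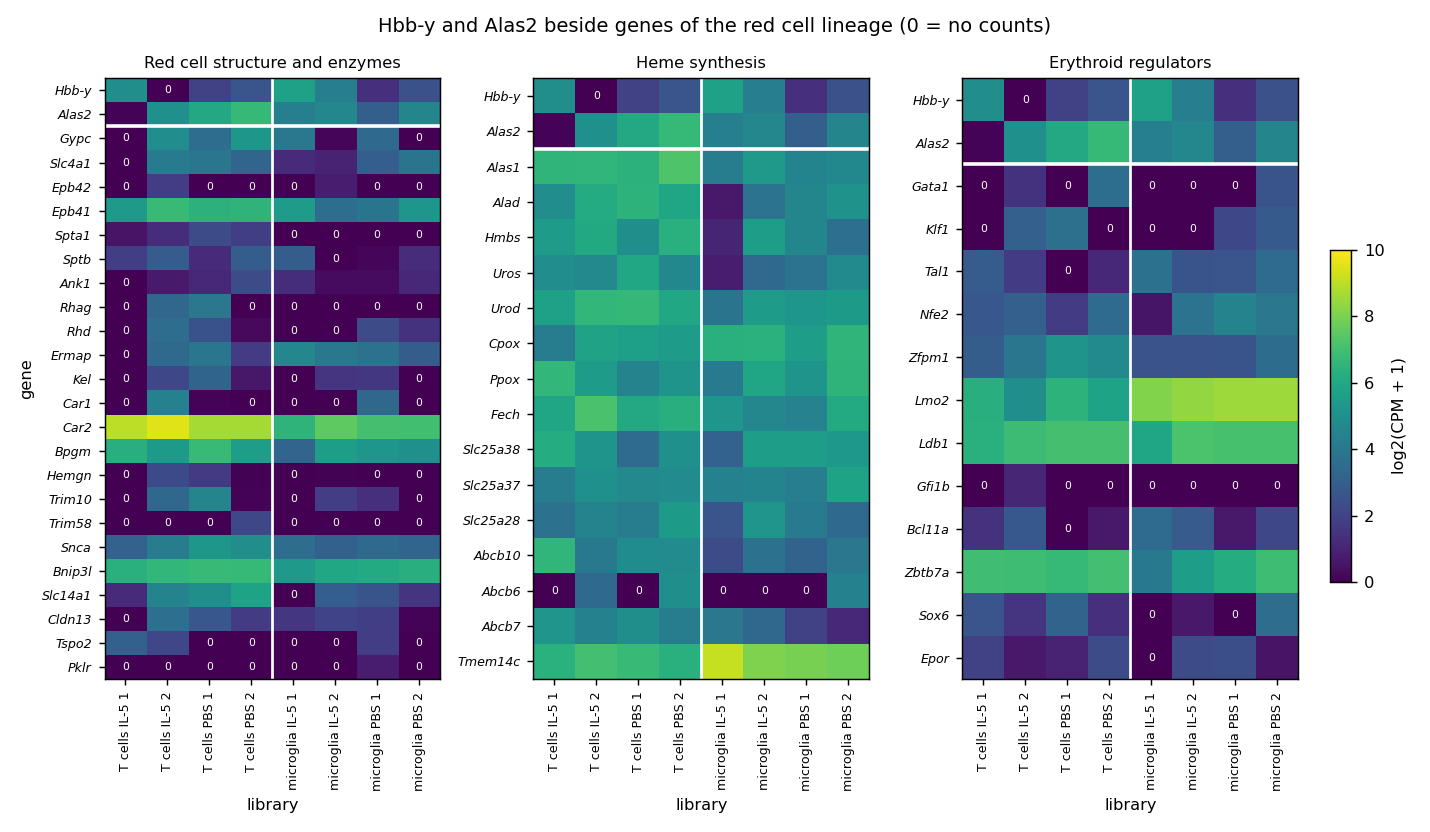
Colour gives log2(CPM + 1) in each of the 8 libraries (columns) for genes of red cell structure, heme synthesis and erythroid regulation (rows), with Hbb-y and Alas2 repeated on top of each panel and 0 written where a library had no counts. The white vertical line parts T cells (left) from microglia (right). T cells IL-5 replicate 1 has 14 of the red cell genes at 0 beside an Hbb-y of 29.7 CPM.

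Among genes that bind or break down free hemoglobin and heme, those called by edgeR were lower in T cells. Hmox1, heme oxygenase, had 7.80 and 9.86 CPM in T cells against 77.5 and 127 CPM in microglia of IL-5 mice (log2 fold change -4.34, SE 0.63, edgeR adjusted p = 0.00479). In PBS mice it had 4.09 and 10.4 CPM in T cells against 81.0 and 167 CPM in microglia (log2 fold change -4.79, SE 0.64, edgeR adjusted p = 0.00283). Slc40a1, the iron exporter ferroportin, was called in IL-5 mice, at 35.1 and 14.6 CPM in T cells against 84.1 and 74.5 CPM in microglia (log2 fold change -2.52, SE 0.54, edgeR adjusted p = 0.0240). The call was lost without microglia IL-5 replicate 1 (edgeR adjusted p = 0.0529) or T cells IL-5 replicate 2 (edgeR adjusted p = 0.107). In PBS mice it missed the threshold (log2 fold change -1.44, SE 0.52, edgeR adjusted p = 0.140). Of the 13 tested genes of the list, edgeR called 2 lower in T cells in IL-5 mice, where 5.73% of all genes were called lower, and 1 in PBS mice, where 4.6% were. DESeq2 called 4 in IL-5 mice, beside 20.2% of all genes, and 7 in PBS mice, beside 20.1%. The log2 fold change was below 0 for 11 and 10 of the 13, and for 7025 and 7394 of all 15397 genes tested. The list's medians were -1.28 and -1.44, against 0.19 and 0.056 for all genes.

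Between IL-5 and PBS mice 0 of these clearance genes were called by edgeR or DESeq2 in either cell type, with 1 of 11 in T cells and 0 of 13 in microglia at an unadjusted p below 0.05. Hmox1 had 77.5 and 127 CPM in microglia of IL-5 mice and 81.0 and 167 CPM in microglia of PBS mice, with overlapping ranges. Slc48a1, a transporter that moves heme out of lysosomes, had 255 and 237 CPM in microglia of IL-5 mice and 164 and 176 CPM in microglia of PBS mice. Nfe2l2, the stress factor that switches on Hmox1, averaged 83.5 CPM over all libraries. Hemopexin (Hpx), the plasma carrier of heme, was at 0 in all 8 libraries, and haptoglobin (Hp), the carrier of hemoglobin that neutrophils also hold, had 0.977 and 74.5 CPM in microglia of IL-5 mice and 68.7 and 117 CPM in microglia of PBS mice.

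Marker genes of other blood and brain cells are given for the same libraries. The 11 platelet markers summed to 3.92 and 29.0 CPM in T cells of IL-5 mice and 5.07 and 18.5 CPM in T cells of PBS mice, and to 276 and 199 CPM in microglia of IL-5 mice and 191 and 166 CPM in microglia of PBS mice. The 5 B cell markers summed to 232 and 189 CPM in T cells of IL-5 mice and 224 and 99.0 CPM in T cells of PBS mice, and to 260 and 291 CPM in microglia of IL-5 mice and 117 and 176 CPM in microglia of PBS mice. The 11 endothelial markers summed to 3649 and 1878 CPM in T cells of IL-5 mice and 2620 and 2885 CPM in T cells of PBS mice, and to 1513 and 1993 CPM in microglia of IL-5 mice and 1290 and 1756 CPM in microglia of PBS mice. The 7 neuron markers summed to 4.93 to 44.2 CPM. The platelet, B cell and choroid plexus sums of both microglia libraries of IL-5 mice lay above those of PBS mice, as Hbb-y did. By single genes the platelet list did not rise as a whole in microglia. Of its 5 tested markers, 1 had a log2 fold change of IL-5 over PBS above 0 and 4 below, with a median of -0.91. All 5 tested B cell markers and all 7 choroid plexus markers were above 0, with medians of 1.18 and 0.67. Of all 13764 genes tested 6744 were above 0, with a median of -0.023. In these 2 lists edgeR and DESeq2 called 0 genes. By edgeR 1 B cell marker and 0 choroid plexus markers had an unadjusted p below 0.05. The part of these cell types in the Hbb-y levels was not tested.

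The genes whose profiles were most like those of Hbb-y and Alas2 were found by the root mean square difference of log2(CPM + 1) profiles, each centred on its mean over the 8 libraries, among 14217 genes with a mean of at least 1 CPM. Hbb-y was nearest to 3110045C21Rik (0.883), then to Ndufa4l2 (0.986), A630001O12Rik (1.01), Nos1ap (1.03) and 2810002D19Rik (1.03), against a median of 2.28 over all candidates and a root mean square of 1.81 for the profile of Hbb-y itself. Ndufa4l2, a mitochondrial protein induced by low oxygen in other cells, had 10.98 and 0.301 CPM in T cells of IL-5 mice and 3.33 and 4.47 CPM in T cells of PBS mice, and 14.3 and 11.7 CPM in microglia of IL-5 mice and 6.38 and 5.49 CPM in microglia of PBS mice. 2810002D19Rik, the most abundant of the 5, had 39.9 and 8.13 CPM in T cells of IL-5 mice and 3.60 and 23.2 CPM in T cells of PBS mice, and 59.1 and 29.3 CPM in microglia of IL-5 mice and 10.1 and 18.5 CPM in microglia of PBS mice. These 5 were high in the same 3 libraries as Hbb-y because they were picked for that, and none belongs to the lists of red cell genes.

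Alas2 was nearest to Ints3 (0.571), a subunit of the Integrator complex, then to Psat1 (0.650), an enzyme of serine synthesis, Rusc1 (0.675), Zfp84 (0.679) and Klhl25 (0.690), against a median of 2.11 and 1.90 for Alas2 itself. Ints3 had 0 and 25.1 CPM in T cells of IL-5 mice and 32.7 and 41.2 CPM in T cells of PBS mice, and 6.33 and 8.52 CPM in microglia of IL-5 mice and 7.49 and 15.98 CPM in microglia of PBS mice. Psat1 had 0.871 and 45.5 CPM in T cells of IL-5 mice and 53.3 and 75.7 CPM in T cells of PBS mice, and 7.94 and 12.01 CPM in microglia of IL-5 mice and 9.37 and 20.1 CPM in microglia of PBS mice. Like Alas2 they were low in T cells IL-5 replicate 1, for which they were picked, and none of the 5 belongs to the lists of red cell genes.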

How the data were processed

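The deposited table held the authors' raw counts, unscaled whole numbers for each gene, from single-end reads of 75 bases. Per the submitters' processing notes, the reads were handled with STAR 2.5.3a, bcl2fastq 2.20.0.422, Cufflinks 2.0, FastQC 1.0.0 and DESeq2 1.1 on mm10 and GRCm38; the counting tool, its strand setting and its treatment of reads matching several genes are not given in the sources used here. Of 24953 entries, 2 summary entries (reads outside genes, 15.2% to 25.5% of a column, and ambiguous reads, 1.39% to 1.77%) and 27 genes with cells that were not numbers were left out, none of them among the 6 genes.

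The main test was edgeR 4.0.16's quasi-likelihood F test in R 4.3.3 (TMM scaling, robust dispersion, filterByExpr with a minimum count of 10, two-sided, Benjamini-Hochberg adjustment over all genes tested, threshold 0.05), within each cell type for IL-5 over PBS and over all 8 libraries for T cells over microglia. Fitted fold changes use TMM scaling, so their sign can differ from that of CPM means. The SE beside an edgeR fold change is its absolute value divided by the square root of its F statistic. Where no test of a gene is given, its SE only describes the spread. The fits were tested on simulated data. DESeq2 1.42.0 and other scalings, filters, a replicate block and leaving out each library were alternatives. Replicate numbers were taken from the labels. An exact permutation test of the summed adult globins between cell types, which had been planned, could not be computed because all values were 0. Limits for 0 counts are 3 counts and cover counting error only.

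Coordinates and transcripts are GENCODE M21 on GRCm38; promoters are RefSeq's, on GRCm38.p6, found for all 6 genes. The text names the 6 genes, every member that edgeR called, and up to 4 members with the highest mean, of the lists of other globins, heme synthesis, erythroid regulators, red cell structure and heme clearance (cell type markers are given as sums), the 5 nearest profiles of Hbb-y and of Alas2, and further genes singled out after their values were seen (among them Slc4a1, Rhag, Gypc, Tspo2, Ermap, Gata1, Klf1, Tal1, Bcl11a, Sox6, Hp and Hpx). The values of 1 listed red cell gene are not reported here. The members and lists were chosen with earlier results of these data known. Plots were made in matplotlib 3.10.9 under Python 3.11.15.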

Additional observations from a re-analysis of the deposited data

Results flagged for a closer look

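For Alas2 the fitted IL-5 effects had opposite signs in the cell types. Both T cell libraries of IL-5 mice lay below the mean of their PBS libraries, with a log2 fold change of -2.37 and an SE of 1.87, which missed the threshold (adjusted p = 1.00 by edgeR). Both microglia libraries of IL-5 mice lay above the mean of theirs, with a log2 fold change of 0.67 and an SE of 0.79, but the groups overlapped and the value was 0.059 without microglia PBS replicate 1. The difference between the cell types was not tested.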

How the results depend on the processing

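With the replicate block, Hbb-y in T cells (IL-5 over PBS) and Alas2 in the 3 comparisons where it was tested were not called, as without it. In T cells the block turned the Hbb-y fold change of IL-5 over PBS to -2.05 (SE 8.57). No pairing was assumed in the main fits. Deviations of same-numbered IL-5 and PBS libraries from their group means correlated at 0.036 in microglia and 0.0065 in T cells. Such deviations were not compared between T cells and microglia, so a pairing across cell types was not tested. With the block 0 genes were called within each cell type, 933 for T cells over microglia in PBS mice and 975 in IL-5 mice, where Car2 was lost (edgeR adjusted p = 0.0534). In T cells, IL-5 over PBS gave 658 calls by DESeq2, 2 with no low count filter, 2 with all 8 libraries in one fit and 0 to 1 with a library left out. Hbb-y there ran from -9.72 without T cells IL-5 replicate 1 to 2.93. In microglia DESeq2 gave 67 calls and leaving out a library 0 to 1255, with 1255 when microglia IL-5 replicate 2 was left out; Hbb-y ranged from 2.58 to 4.79 and Alas2 from 0.059 to 1.74. T cells over microglia in PBS mice gave 1105 calls (396 higher, 709 lower), 2849 by DESeq2, 1722 with no low count filter and 508 to 2028 with a library left out. In IL-5 mice the number was 1266 (383 higher, 883 lower), 2871 by DESeq2 and 385 to 2209. Scaling by library size alone turned the split to 919 higher and 376 lower in PBS mice and 958 and 336 in IL-5 mice, moving the median of all genes by 0.70 and 0.82; Hbb-y in PBS mice then stood at 0.39, and Tmem14c in PBS mice (adjusted p = 0.101) and Slc40a1 in IL-5 mice (0.0889) were no longer called. With each library left out Hbb-y in PBS mice ranged from -0.94 to 0.61. Where a group was left with 1 library, that library was assumed to vary like the others. The cause of these differences was not tested. Summing the adult copies changed nothing, as both were 0. Alternatives for the summed adult globins could not be run.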
